A study of Mus musculus with 12 samples.

Results

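Long noncoding RNAs were followed in RNA pulled down with ribosomes and in the remaining RNA of the lateral ventricle choroid plexus (LV ChP), the tissue that secretes cerebrospinal fluid. The set holds 10 of the 24327 gene names in the table: Malat1, Neat1, Meg3, Rian, Mirg, Miat, Kcnq1ot1, Gas5, Snhg1 and Snhg11. The symbols were chosen from a list drawn up with the values of these libraries known, among them the lower FPKM of Malat1 on ribosomes, so differences between the 2 fractions are given for the 10 RNAs as a description with no test. FPKM scales the reads of a gene to transcript length and to the mapped reads of a library, so that levels are per length. In the GENCODE M21 annotation 9 of the 10 have a long noncoding biotype, and Snhg11 is listed there as protein coding although RefSeq lists it as noncoding. A further 1761 names have a long noncoding biotype.

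The mice were heterozygous for FoxJ1:cre and for a floxed EGFP:L10a transgene. In the latter the large-subunit ribosomal protein RPL10A carries an EGFP tag and is made wherever Cre has acted. FoxJ1 drives Cre in ciliated epithelium, so ribosomes of stromal, vascular and immune cells should carry no tag, and all 4 groups share both transgenes. TRAP (translating ribosome affinity purification) libraries hold the RNA pulled down with tagged RPL10A. Supernatant libraries hold the RNA that was not pulled down, which can include RNA on ribosomes without the tag. Both fractions were taken at 9 a.m., in the light phase, and at 9 p.m., in the dark phase, from male mice aged 60 days by the labels, with 3 libraries per group, each from tissue pooled from 3 mice. The comparisons ask how ribosome association of transcripts differs between fractions and between times of day.

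Most mature mRNA is exported to the cytoplasm and loaded with ribosomes, whereas Malat1 and Neat1 stay in the nucleus. Malat1 gathers in nuclear speckles, bodies rich in splicing factors, and Neat1 is the scaffold of paraspeckles. Neither ends in a poly(A) tail in its long form: RNase P cuts the primary transcript, and the new 3′ end is protected by a triple helix that the A-rich end forms with a pair of U-rich stretches upstream. Meg3, Rian and Mirg are expressed from the maternal copy of 1 imprinted domain and host microRNAs and small nucleolar RNAs (snoRNAs). Kcnq1ot1 is a paternal transcript that silences its own imprinted domain. Gas5 and Snhg1 carry snoRNAs in their introns, and their spliced transcripts reach ribosomes and are degraded by nonsense-mediated decay.

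Malat1 and Neat1 are neighbours on the minus strand of mouse chromosome 19 (mm10), 22035 bases apart. Malat1 spans 5795690 to 5802672 as a single-exon transcript of 6983 bases in its longest form, and Neat1 spans 5824708 to 5845478, with a longest transcript of 20771 bases in 1 exon. The windows below, each of 120 bases and ending at the A-rich tract, are shown because they hold the letters of the triple helix that both RNAs share in place of a poly(A) tail. Capitals mark TTTCTTTT, TTTTGCTTTT and AAAAAGCAAAA, written as DNA on the transcript strand. The sequences were read from GENCODE M21 transcripts and lie at chr19:5795982-5796101 (Malat1) and chr19:5824708-5824827 (Neat1), both on the minus strand.
Malat1: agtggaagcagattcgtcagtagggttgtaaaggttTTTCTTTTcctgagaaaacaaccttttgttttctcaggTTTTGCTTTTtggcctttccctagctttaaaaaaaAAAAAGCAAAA
Neat1: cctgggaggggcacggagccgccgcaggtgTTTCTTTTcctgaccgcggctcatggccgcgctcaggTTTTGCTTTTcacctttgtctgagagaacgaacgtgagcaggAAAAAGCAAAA

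In Malat1 the first and the second motif are 30 bases apart and the second and the third 25, and in Neat1 the distances are 29 and 32 bases. The annotated Neat1 transcript ends with the tract, and the annotated Malat1 transcript runs on for 292 bases. Among 18950 transcripts of long noncoding genes, 5.45% hold TTTCTTTT in their last 420 bases, 0.29% hold TTTTGCTTTT and 0.148% hold AAAAAGCAAAA, searched on the transcript strand. All 3 were found in 2 transcripts, 1 of Malat1 and 1 of Neat1, from which the motifs had been read. The short Neat1 isoform, Neat1-202, holds none of the 3. FPKM of a gene sums over its isoforms, so the long and the short Neat1 cannot be told apart here.

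By mean FPKM over the 12 libraries, Malat1 (1970) was far above the other 9 RNAs and Neat1 (59.8) came next. Meg3, Snhg11 and Gas5 also had means above 1 FPKM, and the remaining 5 did not. Malat1 ranked 1 and Neat1 ranked 4 among the 1770 genes with a long noncoding biotype, where Meg3 ranked 73. Malat1 and Neat1 were above 0 in all 12 libraries, which held for 21 of the 1770 long noncoding genes and for 5112 of 19838 coding genes. Of the 96 values of the other 8 RNAs, 57 (59.4%) were listed at 0. In TRAP this was 31 of 48 values, and in the supernatant 26 of 48. The order below Neat1 therefore lies within the spread between libraries.

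Malat1 was the RNA of the set with the largest difference between fractions. In the TRAP libraries of 9 a.m. it stood at 305, 271 and 311 FPKM, and in the same-numbered supernatant libraries at 4035, 3513 and 3659 FPKM. At 9 p.m. the TRAP libraries held 219, 174 and 242 FPKM and the supernatant libraries 4084, 4314 and 2510 FPKM. The fractions did not overlap at either time: the lowest supernatant library stood at 2510 FPKM and the highest TRAP library at 311. The ratio of supernatant to TRAP means was 12.6 at 9 a.m., with ratios of same-numbered libraries from 11.8 to 13.2, and 17.2 at 9 p.m., with ratios from 10.4 to 24.9. On the log2(FPKM + 1) scale TRAP minus supernatant was -3.66 (SE 0.25) at 9 a.m. and -4.07 (SE 0.30) at 9 p.m.

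In the supernatant Malat1 was among the most abundant rows of the table, at rank 7 to 13 by FPKM. In TRAP its rank was 76 to 307. Malat1 alone made up 55.4% to 81.8% of all FPKM of long noncoding genes in the supernatant libraries and 7.64% to 20.9% in the TRAP libraries. Set against coding genes of the same library, which leaves out the share taken by microRNA rows, Malat1 held 8.01 to 15.5 FPKM per 1000 FPKM of coding genes in the supernatant. The TRAP libraries had 0.459 to 1.20 on this scale.

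Neat1 differed between fractions in the same direction, with wider spread. At 9 a.m. its FPKM was 29.9, 39.9 and 20.1 in TRAP and 114, 148 and 98.0 in the supernatant. At 9 p.m. it was 1.02, 26.8 and 32.2 in TRAP and 94.1, 67.9 and 45.8 in the supernatant. Again no TRAP library reached the lowest supernatant library of its time, and TRAP 9 p.m. replicate 1 stood far below the other TRAP libraries. The ratio of supernatant to TRAP means was 4.01 in the morning and 3.46 in the evening. The log2 difference was -2.0 (SE 0.42) at 9 a.m. and -2.45 (SE 0.93) at 9 p.m., and the latter became -1.15 without TRAP 9 p.m. replicate 1.

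Over all genes, the fit with limma called 0.0463% of 10796 genes between fractions at 9 a.m., 0.0275% of 10924 at 9 p.m. and 0.117% of 11156 over both times. Groups that did not overlap, with TRAP lower, were found for 6.80% of genes at 9 a.m. and for 7.0% at 9 p.m., and Malat1 and Neat1 were the members of the set among them at each time. With same-numbered libraries as a block, 5 genes were called over both times in place of 13. The log2 difference over both times was -3.86 (SE 0.17) for Malat1 and -2.23 (SE 0.57) for Neat1, and the median of all genes was -0.13. Without TRAP 9 p.m. replicate 1 the difference of Neat1 over both times was -1.57.

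**Figure D1:**
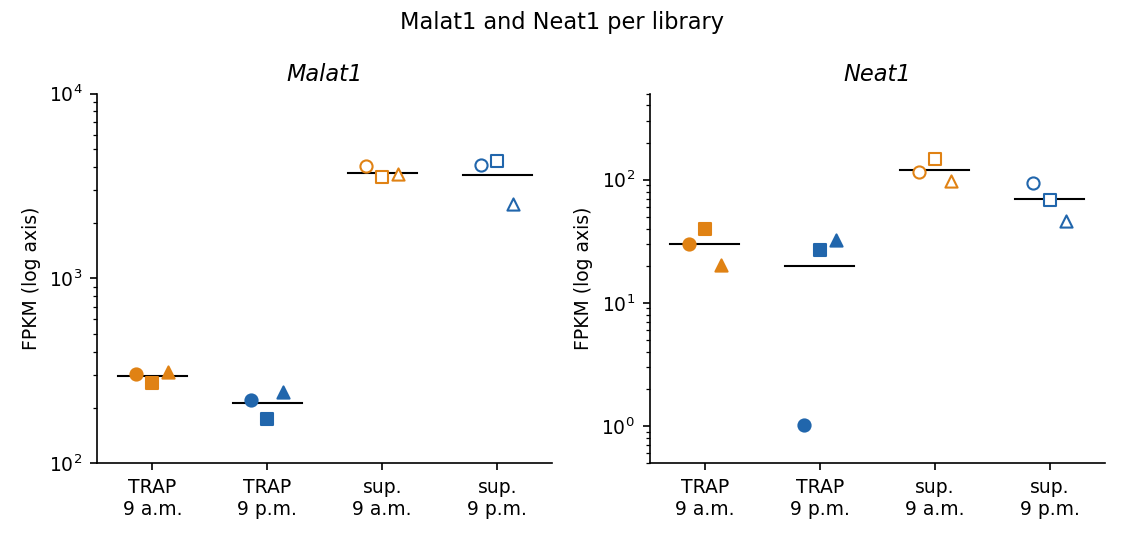
FPKM of Malat1 (left) and Neat1 (right) in each of the 12 libraries on log axes, with TRAP filled, supernatant (sup.) open, 9 a.m. orange, 9 p.m. blue, circles, squares and triangles for replicates 1, 2 and 3, and lines at the group means. Supernatant libraries of Malat1 lie between 2510 and 4314 FPKM and TRAP libraries between 174 and 311, and for Neat1 TRAP 9 p.m. replicate 1 sits alone at 1.02.

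Markers of cells other than the epithelium, which express Malat1 and Neat1 as well, were also higher in sum in the supernatant. Summed FPKM of 9 stroma markers was 7.87 to 30.6 in TRAP and 37.7 to 95.1 in the supernatant, with 5 and 8 markers above a mean of 1 FPKM and Dpt at 0 throughout. Summed FPKM of 10 immune cell markers was 0 to 7.35 in TRAP and 6.18 to 89.2 in the supernatant, with 1 and 6 above 1. The macrophage markers Aif1, C1qa and C1qb were at 0 in all TRAP libraries. For 9 endothelium markers the sums were 0.489 to 18.99 and 13.0 to 40.9, with 3 and 6 above 1 and Tek at 0 in TRAP, and for 10 glia markers 1.28 to 73.0 and 18.9 to 84.3, with 3 and 7 above 1 and Olig2 at 0 in both fractions. Sums of 12 neuron markers overlapped (1.07 to 19.7 and 2.93 to 20.2), with 2 and 4 above 1 and Gad2 among 5 at 0 in TRAP. The part of these cells in the differences of Malat1 and Neat1 was not tested. Libraries of the 2 fractions share animal numbers in the labels, so these sums do not compare numbers of cells. All 13 epithelium markers were above 1 FPKM in both fractions, with sums of 39922 to 73748 in TRAP and 40762 to 54253 in the supernatant. One of the 13, the cation channel gene Trpm3, also lay lower in TRAP, at 179 to 260 FPKM beside 390 to 733 in the supernatant. Limma called it over both times (log2 difference -1.16, SE 0.20, adjusted p = 0.0411), but not with same-numbered libraries as a block (adjusted p = 0.190) nor with any 1 library left out except supernatant 9 p.m. replicate 3 (adjusted p from 0.0426 to 0.134).

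**Figure D2:**
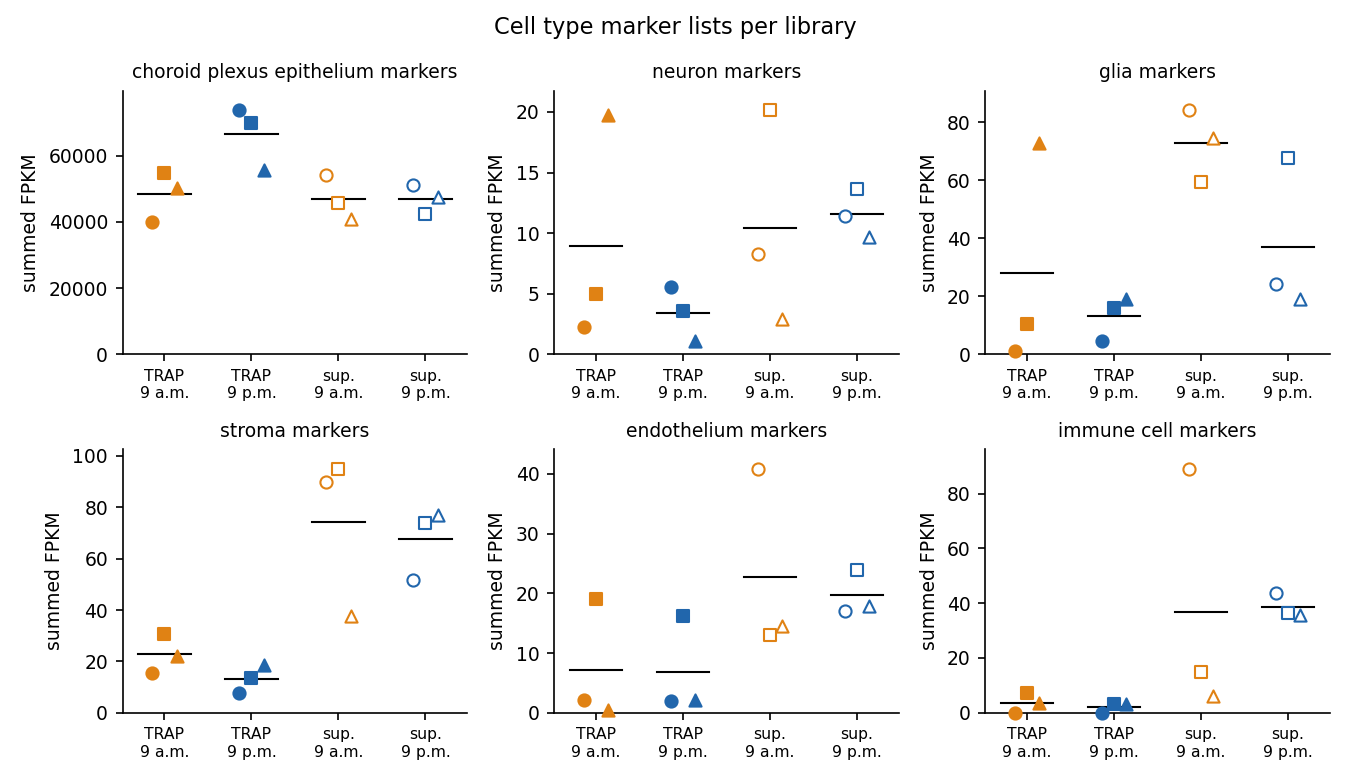
Summed FPKM of each cell type marker list per library, with symbols and colours by fraction, time and replicate number as in the plot of Malat1 and Neat1 and lines at group means, on axes that start at 0. Stroma sums do not overlap between TRAP (up to 30.6) and supernatant (from 37.7), whereas epithelium sums do.

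Long noncoding genes as a class showed a smaller median difference. Of 216 genes with a long noncoding biotype and a mean above 1 FPKM, 83 were higher and 133 lower in TRAP over both times, with a median log2 difference of -0.26, beside -0.12 for 10425 coding genes. For those above 0 in every group the medians were -0.17 (105 genes) and -0.11 (9670 genes). Without the members of the set the long noncoding medians were -0.25 (212 genes) and, above 0 in every group, -0.09 (101 genes). Limma called 0 of the 212 that are no members of the set over both times, with 13 of them at an unadjusted p under 0.05. Over all 11156 genes 841 had such a p. TRAP lay below the supernatant with no overlap for 7 of 184 long noncoding genes at 9 a.m. (3.80%) and for 10 of 198 at 9 p.m. (5.05%), Malat1 and Neat1 included. The shares over all genes were higher, at 6.80% and 7.0%. By log2 difference over both times Malat1 was the lowest of the 216 and Neat1 the sixth lowest.

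**Figure D3:**
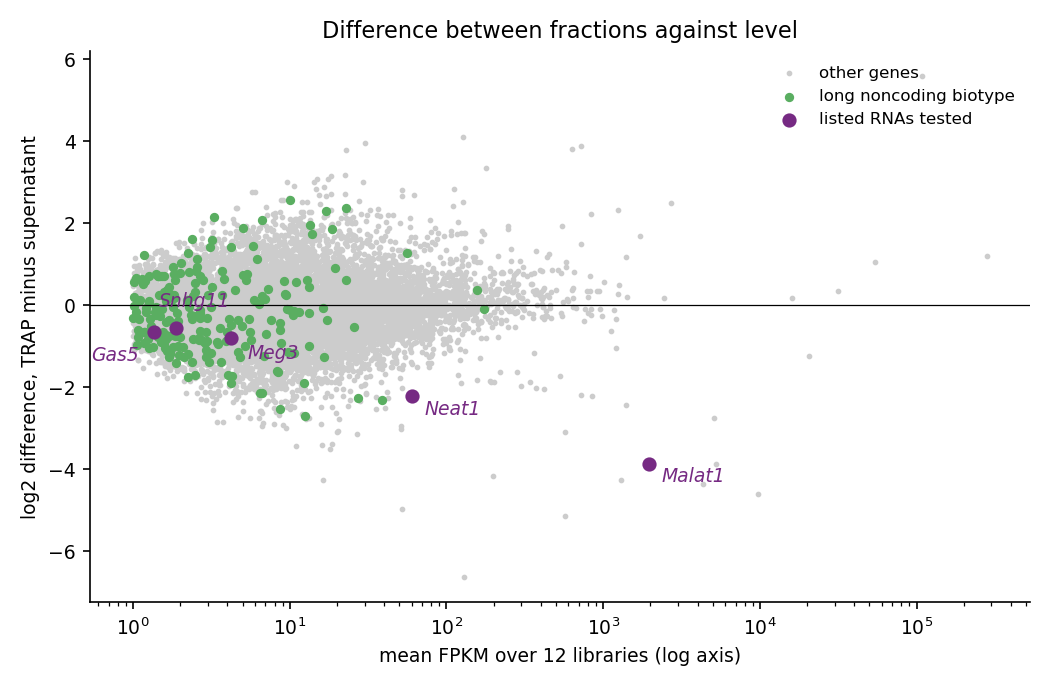
Log2 difference between TRAP and supernatant over both times against mean FPKM (log axis), 1 point per gene, for 11156 genes. Long noncoding genes (green) spread to both sides of 0, and Malat1 at -3.86 and Neat1 at -2.23 (purple) lie low for their level, while Meg3, Gas5 and Snhg11 lie at means below 5 FPKM.

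The 3 RNAs of the imprinted domain on chromosome 12 were weak and uneven. Meg3, best known as a tumour suppressor RNA, lies at 109541001 to 109571726 on the plus strand (mm10). Its FPKM in TRAP was 0, 0.320 and 7.19 in the morning and 0.0257, 0 and 10.3 in the evening. In the supernatant it was 2.0, 3.33 and 0.420 in the morning and 22.7, 3.76 and 0.697 in the evening. High values thus fell in single libraries of each fraction, and the groups overlapped at both times. The log2 difference between fractions was -0.26 (SE 1.20) at 9 a.m. and -1.35 (SE 1.38) at 9 p.m. Rian, which begins 32213 bases after Meg3 and hosts box C/D snoRNAs, was at 3.02 FPKM in supernatant 9 p.m. replicate 2 and at 0 in the other 11 libraries. Mirg, a microRNA host that begins 68047 bases after Rian, was at 3.73 FPKM in TRAP 9 a.m. replicate 1, at 0.121 in TRAP 9 p.m. replicate 3 and at 6.53 in supernatant 9 p.m. replicate 3, and at 0 elsewhere.

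The small RNAs that this domain carries gave no signal in the table. The annotation places 2 microRNA genes inside Meg3, 17 small RNA genes inside Rian and 14 inside Mirg on the same strand, of which 2, 7 and 14 have a row. All these rows were at 0 in every library. The protein-coding partners of the domain, the paternally expressed Dlk1 and Dio3, were also at 0 in every library, and Rtl1 did not exceed 0.101 FPKM.

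Kcnq1ot1 was faint but present in most libraries. It is annotated as 1 unspliced transcript of 93092 bases on the minus strand of chromosome 7 (143203458 to 143296549), antisense to Kcnq1, and no source used here states whether strand was counted, so that reads of both genes may be mixed. Its FPKM in the morning was 0.267, 0.703 and 0 in TRAP and 0, 0.591 and 0.623 in the supernatant. In the evening it was 0.0608, 0.0281 and 0.567 in TRAP and 0.347, 0.671 and 0.469 in the supernatant, so that the fractions overlapped at both times. It was above 0 in 10 of 12 libraries, more than any member of the set but Malat1, Neat1 and Meg3, which was also above 0 in 10. The potassium channel gene Kcnq1 itself was above 0 in 2 libraries, at 4.72 and 0.109 FPKM. Miat, a nuclear RNA best known from neurons and heart, was at 0.163 FPKM in supernatant 9 a.m. replicate 3 and at 0 in all others.

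Within the imprinted domain that Kcnq1ot1 silences, Cdkn1c, an inhibitor of cyclin-dependent kinases, was abundant. In TRAP its FPKM was 261, 248 and 237 at 9 a.m. and 291, 334 and 331 at 9 p.m., and in the supernatant 189, 110 and 177 at 9 a.m. and 194, 181 and 138 at 9 p.m. All TRAP libraries thus lay above all supernatant libraries, the opposite order to Malat1, but the difference over both times did not pass the test (log2 difference 0.79, SE 0.20, adjusted p = 0.279, limma). Cd81, a tetraspanin at the edge of the domain, had 187 to 436 FPKM in TRAP and 229 to 537 in the supernatant. Tssc4, a further gene of the domain, ran from 0 to 53.1 FPKM in TRAP and from 0 to 8.79 in the supernatant. Of the 10 coding genes listed for both imprinted domains, 4 were at 0 in every library, 3 were tested and 0 were called in any of the 6 comparisons. Groups that did not overlap with TRAP higher were found for 3.25% of all genes at 9 a.m. and for 4.90% at 9 p.m. These shares hold within a single time, and the share over both times together was not counted.

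The snoRNA host genes of the set appeared in scattered libraries. Gas5, a growth-arrest gene that hosts snoRNAs, had 0, 0.144 and 0 FPKM in TRAP at 9 a.m. and 0.0615, 3.81 and 0 at 9 p.m. In the supernatant it had 0, 0.299 and 8.56 at 9 a.m. and 0.574, 2.62 and 0.262 at 9 p.m. Its groups overlapped at both times, with a log2 difference over both times of -0.66 (SE 0.69). Snhg1 was at 6.21 FPKM in TRAP 9 a.m. replicate 2 and at 0 in the other 11 libraries. Snhg11, an RNA best known from brain, had 0, 0 and 9.57 FPKM in TRAP at 9 a.m. and 0.0256, 0 and 0 at 9 p.m., and in the supernatant 6.30, 0 and 1.49 at 9 a.m. and 0, 5.04 and 0 at 9 p.m. The TRAP library in which Snhg11 was high, 9 a.m. replicate 3, also had the highest neuron (19.7) and glia (73.0) marker sums of the TRAP libraries, and their part in the value of Snhg11 was not tested.

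**Figure D4:**
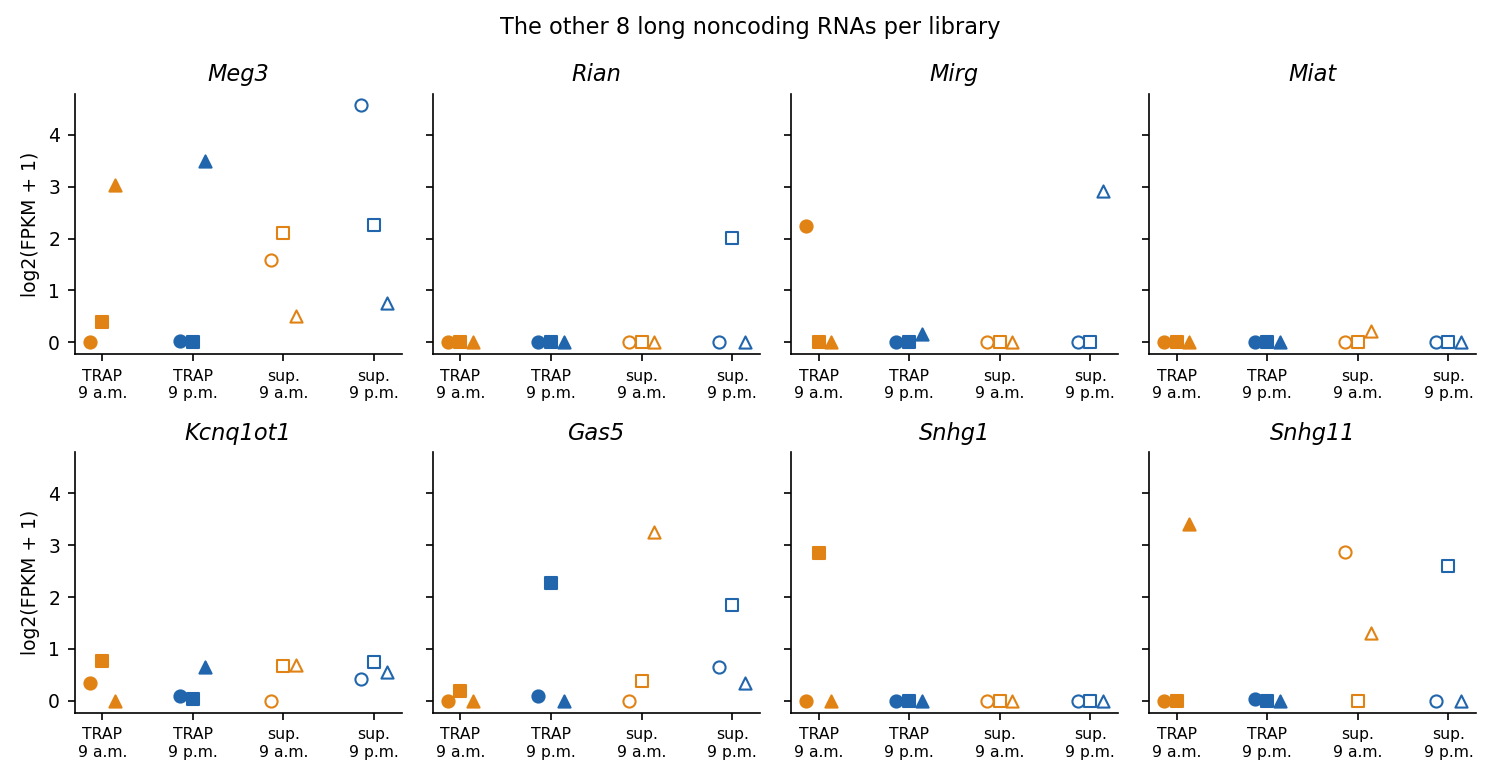
Level of the other 8 RNAs in each library as log2(FPKM + 1), with fraction, time and replicate number shown as in the plot of Malat1 and Neat1. Most points lie at 0 and high values fall in single libraries of both fractions, such as Meg3 at 22.7 FPKM in 1 supernatant library and Snhg1 at 6.21 FPKM in 1 TRAP library.

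Inside Snhg1 lies Snord22, whose row was strong where its host was not. Its transcript is shown because it is the only small RNA with a row inside any of the 10 RNAs that rose above 0, with capitals on the CTGA of the box D end, letters that 35.4% of 1507 annotated snoRNA transcripts hold in their last 20 bases. It was read from GENCODE M21 at chr19:8725866-8725991, plus strand.
Snord22: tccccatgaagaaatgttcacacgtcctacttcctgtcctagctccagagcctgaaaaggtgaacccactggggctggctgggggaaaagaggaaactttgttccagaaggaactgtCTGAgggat

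Snord22 had 0, 1826 and 0 FPKM in the TRAP libraries of 9 a.m. and 9925, 2708 and 0 in those of 9 p.m. The supernatant libraries had 0, 1180 and 477 in the morning and 0, 0 and 639 in the evening. It was above 0 in 6 libraries, 3 of each fraction, and Snhg1 was above 0 in 1 of these. FPKM divides by length, so a few reads on a transcript of 126 bases give a large value, and how many reads lie behind these values is unknown. Of 8 small RNAs annotated inside Snhg1, 10 inside Gas5 and 2 inside Snhg11, rows exist for 1, 1 and 0, and Snord47 inside Gas5 was at 0 in every library.

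Other noncoding snoRNA hosts showed the same unevenness. Of the 168 values of 14 such genes, 120 (71.4%) were at 0. Snhg9, the most abundant by mean, was at 649 and 612 FPKM in 2 TRAP libraries, at 211 and 401 in 2 supernatant libraries and at 0 in the other 8. Snhg8 was above 0 in 1 TRAP library (1.75 FPKM) and in 4 supernatant libraries (up to 72.8), with a log2 difference over both times of -2.70 (SE 1.11, adjusted p = 0.639, limma). It passed the filter through the supernatant (mean 24.9 FPKM, beside 0.292 in TRAP), so its direction carries no weight. Snhg6 was above 0 in 1 library of each fraction, at 47.1 in TRAP and 74.0 in the supernatant. Over both times 0 of the 11 hosts tested were called, with a median log2 difference of -0.35. Most of the 11 were at 0 throughout some group, and the 3 above 0 in every group had a median of 0.17.

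Among 18 other nuclear or chromatin-bound long noncoding RNAs, 6 were at 0 in every library. Peg13, an imprinted RNA, was above 0 in all 12 libraries at 12.9 to 63.0 FPKM in TRAP and 7.37 to 24.9 in the supernatant. Tug1 was likewise above 0 in all 12, at 6.56 to 33.0 in TRAP and 9.74 to 26.5 in the supernatant, with a log2 difference of -0.06 (SE 0.48). Rmst, which acts in neural fate, was above 0 in 3 TRAP libraries, up to 7.75 FPKM, and in 5 supernatant libraries, up to 20.04. Its log2 difference over both times was -2.14 (SE 0.85), which did not pass the test (adjusted p = 0.626, limma). Of the 6 tested over both times 5 were lower in TRAP, with a median of -0.95 beside -0.13 for all genes, and 0 were called. Pantr1 and Sox2ot passed the filter through the supernatant, so their direction carries no weight. Their means were 2.36 and 3.04 FPKM there, beside 0 and 0.349 in TRAP. The count of 5 lower and the median of -0.95 include both, so neither is read as a trait of the list. Sox2ot is also among the 5 above 0 in every group, so their median of -1.25 carries no weight either.

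Messenger RNAs for the proteins that bind these RNAs had a list median near 0. All 15 listed proteins of paraspeckles and nuclear speckles were tested, and 0 were called in any of the 6 comparisons, with a median log2 difference over both times of 0.01. Srrm2, a speckle scaffold, had 184 to 239 FPKM in TRAP and 126 to 162 in the supernatant, while Srrm1, a splicing coactivator, had 126 to 237 and 99.1 to 153. Prpf8, the core spliceosome protein, had 137 to 211 in TRAP and 47.2 to 115 in the supernatant (log2 difference 1.09, SE 0.25, adjusted p = 0.186, limma). Like Cdkn1c, Srrm2 and Prpf8 did not overlap between fractions over all 12 libraries. Within a single time 3.25% of all genes showed this order at 9 a.m. and 4.90% at 9 p.m. The share of genes that showed it over both times together was not counted.

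Further lists cover the decay pathway that degrades snoRNA host transcripts, the proteins of snoRNA particles, and mRNAs with a 5′ terminal oligopyrimidine (TOP) tract, which many snoRNA hosts share. Of 12 nonsense-mediated decay factors 0 were called in any comparison, with a median log2 difference over both times of -0.33. The release factors Etf1 and Gspt1 had means of 77.9 and 35.3 FPKM. Of 9 snoRNP proteins 0 were called (median -0.47), and Nop10, Nolc1 and Nop58, which build or chaperone snoRNPs, had means of 31.4, 26.0 and 12.5 FPKM. Of 15 coding TOP mRNAs tested 0 were called (median -0.42). The elongation factors Eef1a1 and Eef2 had means of 302 and 262 FPKM, and Gnb2l1, which encodes the ribosomal scaffold RACK1, 80.7 FPKM.

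**Figure D5:**
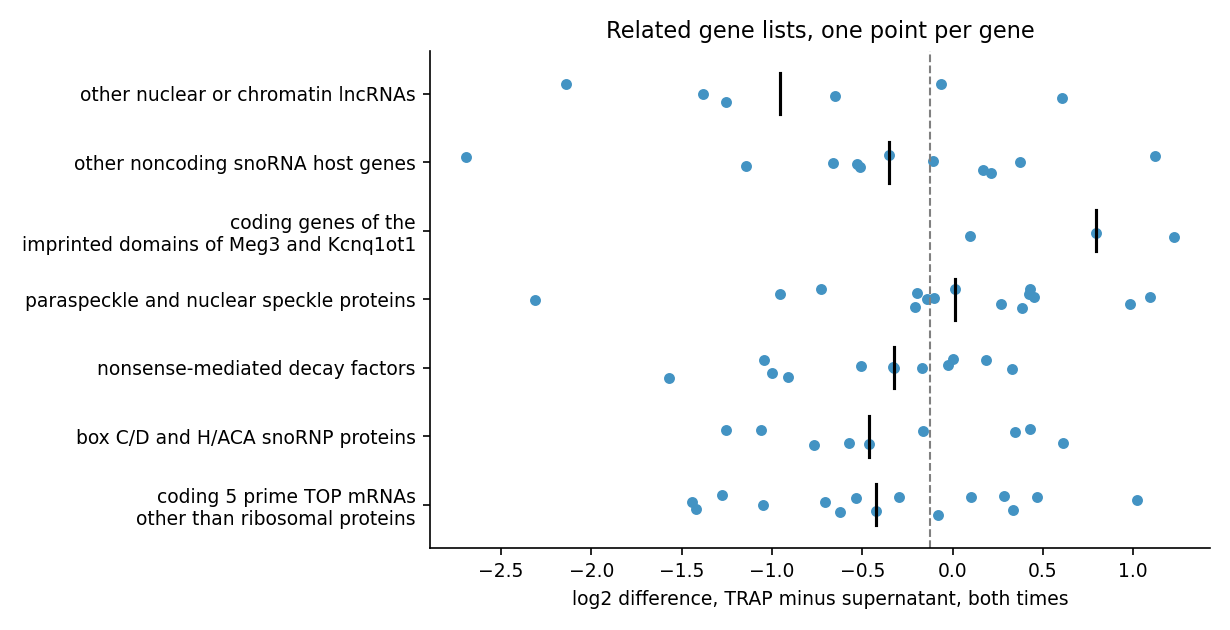
Log2 difference between TRAP and supernatant over both times for each tested gene of the 7 related lists (points, jittered vertically), with black bars at list medians and a dashed line at the median of all genes, -0.13. The medians run from -0.95 for other nuclear long noncoding RNAs to 0.79 for the 3 imprinted coding genes, and no point is a called gene. The list at -0.95 includes Pantr1 and Sox2ot, which passed the filter through the supernatant.

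Between times of day, 5 members of the set were tested in TRAP and 6 in the supernatant, and 0 were called. Snhg1 and Snhg11 in TRAP and Mirg and Gas5 in the supernatant each passed the filter through 1 library (6.21, 9.57, 6.53 and 8.56 FPKM). That library sets their direction, so their tests carry no weight. Rian, Miat and Kcnq1ot1 were too low to be tested in either fraction, as were Gas5 and Mirg in TRAP and Snhg1 in the supernatant. Limma called 0.00% of 10563 genes in TRAP, with 418 at an unadjusted p under 0.05, and 0.00903% of 11075 in the supernatant. Malat1 in TRAP had a mean of 296 ± 21.9 FPKM (SD, n = 3) at 9 a.m. and 212 ± 34.8 at 9 p.m. Each 9 p.m. library lay below each 9 a.m. library, as for 2.93% of genes, and the exact two-sided permutation test gave p = 0.1, the smallest that 3 against 3 allow. Its log2 difference was -0.49 (95% interval -1.15 to 0.16, adjusted p = 0.941, limma). Summed stroma markers in TRAP had a mean of 22.8 FPKM at 9 a.m. and 13.3 at 9 p.m. For glia the means were 28.2 and 13.3, for neurons 8.97 and 3.38, for endothelium 7.20 and 6.80 and for immune cells 3.61 and 2.12. All these sums overlapped between times. Epithelium sums were higher at 9 p.m. without overlap, with means of 48315 and 66415 FPKM. The part of these cells in the values of Malat1 was not tested. In the supernatant Malat1 had means of 3736 ± 269 and 3636 ± 982 FPKM (SD, n = 3), with an interval of -0.71 to 0.56 around a log2 difference of -0.08 (adjusted p = 0.994, limma).

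For Neat1 the times overlapped in TRAP and not in the supernatant. In TRAP the log2 difference was -1.28 (95% interval -3.42 to 0.87, adjusted p = 0.941, limma), and it was 0.02 without TRAP 9 p.m. replicate 1. In the supernatant the mean went from 120 ± 25.5 FPKM (SD, n = 3) to 69.3 ± 24.2, with each 9 p.m. library below each 9 a.m. library, as for 3.79% of genes. The exact permutation test again gave its smallest p of 0.1, and limma gave a log2 difference of -0.82 (95% interval -1.62 to -0.03, adjusted p = 0.970, unadjusted p = 0.0435). The ratio of Malat1 to Neat1 in the supernatant was 23.7 to 37.3 at 9 a.m. and 43.4 to 63.5 at 9 p.m., again with exact permutation p = 0.1. In TRAP this ratio ran from 6.79 to 15.5 in the morning and was 6.47, 7.52 and 215 in the evening, where the exact permutation p was 0.9. Markers of other cells moved both ways in the supernatant. Summed glia markers ran from 59.6 to 84.3 FPKM at 9 a.m. and from 18.9 to 67.7 at 9 p.m., with means of 72.8 and 37.0. Of tested genes, 6 of 7 glia markers (median log2 difference -1.20) and 6 of 8 stroma markers (median -0.57) were lower at 9 p.m. Of 6 endothelium markers 4 were higher (median 0.28). Immune cell markers were split 3 and 3 and neuron markers 2 and 2, and 0 of all these were called. Their part in the values of Neat1 was not tested, and between times fewer cells of a type cannot be told apart from less RNA per cell.

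The change between times was not shown to differ between fractions for any of the 5 members tested. Limma called 0.00896% of 11156 genes for the interaction of time and fraction, which is 1 gene, or 2 with same-numbered libraries as a block. Taken as the 9 p.m. minus 9 a.m. difference in TRAP minus that in the supernatant, it was -0.41 (95% interval -1.16 to 0.33, adjusted p = 0.988) for Malat1 and -0.46 (-2.90 to 1.99, adjusted p = 0.998) for Neat1. For Meg3, Gas5 and Snhg11 the intervals ran from -4.96 to 2.78, from -1.95 to 3.92 and from -3.93 to 2.74, so changes of several log2 units could not have been detected. Gas5 again passed the filter through supernatant 9 a.m. replicate 3 (8.56 FPKM), so its test carries no weight. Rian, Mirg, Miat, Kcnq1ot1 and Snhg1 had means below 1 FPKM over the 12 libraries and were not tested for the interaction.

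The genes whose profile over the 12 libraries was most like that of Malat1, by Pearson correlation of log2(FPKM + 1) among 11155 genes, were Akap12 (r = 0.965), Tcf20 (0.950) and S1pr3 (0.949). Akap12, a kinase-anchoring protein, was at 0 to 0.0373 FPKM in TRAP and 3.64 to 13.2 in the supernatant. Tcf20, a transcriptional coregulator, was at 37.2 to 94.5 in TRAP and 152 to 251 in the supernatant. For Neat1 they were Traf3 (0.948), Ggps1 (0.942) and Ube2q2 (0.936). The 12 points fall into the 2 fractions, which all these genes share as a difference in mean level. The 3 genes most like Neat1 share its low library as well: in TRAP 9 p.m. replicate 1 they stood at 1.77, 0 and 0.106 FPKM.

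For the sparse RNAs likeness rested on few libraries. Meg3 was most like Zfp445 (0.798), Alb (0.770) and Cyp3a11 (0.764). Alb, the plasma albumin gene of liver, stood at 171 FPKM in TRAP 9 a.m. replicate 3, 42.8 in TRAP 9 p.m. replicate 3 and 89.0 in supernatant 9 p.m. replicate 1, the libraries in which Meg3 was highest, but also at 33.98 in TRAP 9 a.m. replicate 1, where Meg3 was at 0. Its part in the values of Meg3 was not tested. Gas5 was most like Rfc4 (0.936), Mir7686 (0.880) and Cav3 (0.877), and Snhg11 like Casp9 (0.910), Gpm6b (0.902) and Astn1 (0.890), of which Gpm6b and Astn1 are best known from neurons and glia.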

How the data were processed

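RNA of 12 libraries (3 per fraction and time) was sequenced by the authors as single-end reads of 50 nt after ribosomal RNA depletion. Per the labels and methods reads were aligned to mm10 with STAR 2.4.0, and the authors deposited FPKM values from Cuffquant. The sources used here do not state the annotation, the version of Cufflinks or whether strand was counted. FPKM is relative, and whole reads could not be recovered, so depth is unknown and no counting interval is given. MicroRNA rows took 31.9% to 75.4% of summed FPKM per library. Of 24354 names, 27 that had become dates were left out, and 23289 (95.7%) were found in GENCODE M21 (GRCm38, that is mm10). Genes that GENCODE lists as noncoding but RefSeq as coding were kept out of the long noncoding class. Coordinates and transcript sequences are from GENCODE M21.

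Tests were made with limma 3.58.1 in R 4.3.3 on log2(FPKM + 1) values. Genes needed a mean of over 1 FPKM in the libraries of a comparison, the prior variance followed an intensity trend, and p-values were adjusted over all tested genes (Benjamini-Hochberg). Fold changes on this scale understate those of weak genes. A gene was called at an adjusted p below 0.05 with a log2 difference beyond 0.4 either way for times or 0.3 for fractions. The interaction needed the adjusted p alone. Single values were compared by exact two-sided permutation. The members, lists and alternatives were chosen with earlier results of these data known. Named are the 10 RNAs, from each list the genes called in any comparison and the 3 of highest mean FPKM, the 3 genes most like each RNA with a mean above 1 FPKM, and small RNA rows inside the RNAs. One gene that this rule names is not reported here. Dlk1, Dio3, Rtl1, Kcnq1, Trpm3, Pantr1 and Sox2ot were named after their values were seen. Libraries of the same number and time share an animal number in the labels, which pairs them, but their deviations from group means did not run together (correlations -0.075 to -0.014 over 11156 genes). Alternatives covered the pseudocount, filter, scaling, trend, a replicate block, 1 fit of all 12 libraries and each library left out. Figures and exact tests used Python 3.11.15, matplotlib 3.10.9 and scipy 1.17.1. P-values measure the spread between pools.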

Additional observations from a re-analysis of the deposited data

How the results depend on the processing

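Malat1, Neat1, Meg3, Mirg, Gas5, Snhg1 and Snhg11 passed the filter in at least 1 comparison, and Rian, Miat and Kcnq1ot1 in none. Of 463 values of the former under the alternatives, 449 kept their direction and side of the threshold or, for values with no test, moved by less than the spread between replicates, 13 tested values changed sign and 1 value with no test moved by more. None of the 232 of these that carry a test reached an adjusted p under 0.05. The difference of Malat1 between fractions lay between -3.70 and -3.31 at 9 a.m. (-3.31 under quantile normalization) and between -4.32 and -3.93 at 9 p.m., and that of Neat1 over both times between -2.58 and -1.57. Among values with no test, the fraction differences of Meg3 and Snhg11 at 9 a.m. and of Gas5 at 9 p.m. also reached the other sign (up to 0.32, 0.48 and 0.23). The tested values that changed sign did not pass the test under any setting. They were Meg3 in TRAP between times (-0.41 with a pseudocount of 0.1, -0.54, -0.34 and -1.13 without TRAP 9 a.m. replicate 1 or 2 or TRAP 9 p.m. replicate 3, within a range of -1.13 to 0.98), Neat1 in TRAP between times (-1.99 to 0.025) and for the interaction (-1.17 to 0.85), in both without TRAP 9 p.m. replicate 1, Gas5 in the supernatant (0.31 with a pseudocount of 0.1, and -0.87 to 0.043 with libraries left out), Malat1 (-0.22 to 0.17) and Snhg11 (-1.39 to 0.21) in the supernatant, and Snhg11 for the interaction (-1.33 to 0.54). The cause was not tested.

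The small counts of called genes depended on the setting in 32 of 94 fits. With no filter 0 genes were called in the supernatant between times (from 1), 3 between fractions at 9 a.m. (from 5), 0 at 9 p.m. (from 3), 8 over both times (from 13) and 0 for the interaction (from 1). Without the intensity trend the counts were 1, 1, 7 and 0 for the last 4. A pseudocount of 0.1 gave 3 at 9 a.m. and 0 for the interaction, and quantile normalization gave 2 in the supernatant between times and 5 at 9 p.m. With a replicate block, the paired fit, 5 genes were called over both times and 2 for the interaction, and no other count moved beyond 1.5 times. With each library left out in turn the counts ran from 0 to 5 in TRAP and 1 to 4 in the supernatant between times, 3 to 11 between fractions in the morning and 2 to 7 in the evening, 8 to 13 over both times and 0 to 1 for the interaction. The highest were 5 and 11 without TRAP 9 a.m. replicate 2, and 4 and 7 without supernatant 9 p.m. replicate 3. The fit over both times gave 8 without TRAP 9 p.m. replicate 2, and the interaction gave 0 without any 1 of the 6 libraries of 9 a.m. or the 3 of supernatant 9 p.m. The median of all genes in TRAP between times was 0.16 and became -0.04 with coding FPKM rescaled to equal sums, between fractions at 9 a.m. it was -0.20 and became -0.03 under quantile normalization, at 9 p.m. it went from -0.07 to -0.24 with rescaling, and for the interaction from 0.11 to -0.08. Depth is unknown, so a value of 0 cannot be read as absence.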
